A study of Mus musculus with 8 samples.

Results

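Macrophage cytokine genes and the genes of their antagonists, 10 in all, were followed across mouse bone marrow derived macrophages with and without interferon gamma (IFN-γ), calcitriol and the vitamin D receptor. The genes were Tnf, Il1a, Il1b, Il1rn, Il10, Il12b, Il15, Il18, Il18bp and Tgfb1. They were taken by name, and all 13 probe sets that the platform annotation gives to these 10 genes were used, out of 22626 probe sets without controls, which name 12393 genes singly. Each of the 8 groups had 1 array of total RNA. Wild-type mice and mice labelled Vdr -/- (the untreated array as Vdr tm1 Rge knockout) each gave an untreated array, an array with calcitriol, an array with IFN-γ and an array with both. Calcitriol, the active hormone form of vitamin D, acts through the receptor that Vdr encodes. All cells were grown from marrow with M-CSF, the macrophage growth factor, at 50 ng/ml for 7 days, and treated cells were cultured with the agents for 24 to 48 hours. The strain, sex and number of mice, the doses of both agents and whether marrow was pooled were not stated in the labels. The knockout is not limited to macrophages in the labels, so the marrow grew in mice that were Vdr -/- by label. Whether these mice still make part of the receptor is not stated, so its absence here and below means that label.

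Macrophages start and end inflammation largely through secreted cytokines. TNF, IL-1α, IL-1β, IL-12, IL-15 and IL-18 drive it, and IL-10 and TGF-β1 restrain it. Antagonists act outside the cell: the IL-1 receptor antagonist, the product of Il1rn, occupies the IL-1 receptor without signalling, and the IL-18 binding protein, the product of Il18bp, captures free IL-18 before it reaches its receptor. Because IL-18 induces IFN-γ in T and NK cells, the binding protein closes a feedback loop on IFN-γ. IL-1β and IL-18 are made as precursors that caspase-1 cuts, so their mRNA does not show how much active cytokine is released. IFN-γ alone is known as a weak inducer of many of these cytokine genes compared with microbial products.

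The bases upstream of 2 members are printed because these 2 genes had higher signals on all 4 arrays with IFN-γ than on any array without it. The RefSeq promoter table of build GRCm38.p6 was matched by symbol and held 10 windows for 8 of the 10 members, all but Il10 and Il15. Each run gives the 250 bases before the start site, 5′ to 3′ on the gene's own strand, which is the minus strand for both. Il18bp lies at chr7:102018233-102018482 and Tnf at chr17:35202008-35202257, and capitals mark the TATA sequence TATAAA.
Il18bp: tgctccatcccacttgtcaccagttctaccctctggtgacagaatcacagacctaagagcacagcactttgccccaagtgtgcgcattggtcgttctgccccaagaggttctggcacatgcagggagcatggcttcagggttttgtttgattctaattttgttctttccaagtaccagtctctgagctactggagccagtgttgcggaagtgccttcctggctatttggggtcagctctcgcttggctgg
Tnf: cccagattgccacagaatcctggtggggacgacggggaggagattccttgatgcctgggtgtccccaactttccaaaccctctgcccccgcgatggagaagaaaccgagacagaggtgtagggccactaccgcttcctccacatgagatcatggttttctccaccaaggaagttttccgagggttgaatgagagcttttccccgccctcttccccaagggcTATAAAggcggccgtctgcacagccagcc

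The windows were searched on both strands, 50 bases past the start site included, for the sequences below. The interferon response element core GAAANNGAA was in 0 of the 10 member windows and in 8.56% of all 32851 windows. The kappaB consensus, bound by NF-κB, was in 1 of 10 (Tgfb1) and in 8.46% of all. The DR3 consensus of the vitamin D receptor was in 0 of 10 and in 0.0396% of all. TATAAA was in 5 of 10 windows and in 13.6% of all, and its first base lay at -29 from the start site in Tnf, -32 in Il1a and -31 in Il1b. In 1 Il1rn window and in Il18 the match was on the opposite strand, 14 bases past the start site and at -175. A match is a run of letters, not a bound site, and a window without one says nothing of sites elsewhere.

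The arrays differed in RNA quality and in how far they matched their labels. The signal ratio of the 3′ to the 5′ Gapdh control probe sets, which rises when labelled RNA is truncated, was 7.67 on the wild-type calcitriol array, 4.82 on the array labelled Vdr-/- untreated and 3.06 on the Vdr-/- IFN-γ array, against 0.853 to 1.65 on the other 5. For actin the ratio was 4.08, 3.27 and 1.53 in the same order, against 1.39 to 1.81 on the other 5. The Vdr-/- IFN-γ array was thus set apart by Gapdh only. Vdr read 6.7 and 5.3 on its probe sets in the untreated culture labelled wild-type and 90.3 and 63.2 on the array labelled Vdr-/- untreated, against the labels, and both were higher in wild type in the other 3 treatments. The labels do not place these probe sets relative to the deleted part of the gene, so they may not test it. Every change that uses an untreated array rests on its label. Of 12 measured macrophage markers, all 12 were above the pooled median signal of 59.1 on every array, among them Csf1r (9768.9 to 23760.8) and Cd68 (1052.3 to 7964). Summed signal of 9 neutrophil markers was 461 to 1142 with IFN-γ and 650 to 770 without, and that of 7 dendritic cell markers 930 to 2432 and 726 to 1512. For 10 stromal markers it was 211 to 324 with IFN-γ and 441 to 765 without, groups that did not overlap. For 7 erythroid, megakaryocyte and mast cell markers it was 220 to 325 and 371 to 615, which did not overlap either. In that list Pf4 alone read 85.7 to 152 with IFN-γ and 207.9 to 474.7 without, and each other marker overlapped between the groups. Of the tested markers, 1 of 7 stromal ones and 1 of 5 in the list with Pf4 were called lower with IFN-γ. Called higher were 3 of 12 macrophage markers and 1 of 5 dendritic cell markers. Of all 18058 tested probe sets 230 were called lower and 389 higher. A share for summed signals that do not overlap was not computed. Summed signal of 7 T and NK cell markers was 146 to 243 and 149 to 317, and that of 6 B cell markers 132 to 240 and 121 to 340. Of the markers in these lists, 0 were below the floor on all 8 arrays. Their part in the results below was not tested.

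Most of these cytokine genes gave low signals. Signals below 15.5, the pooled 25th percentile and used as a floor, made up 15 of the 104 member values. Il1a and the first of 2 Il12b probe sets, numbered in the order of the deposited table, never reached 59.1 and so were not tested, which left 11 probe sets of 9 genes among 18058 tested. Levels are not compared between genes, since the brightness of a probe set also depends on its sequence. Signals are linear intensities, and changes are differences of log2 signal after the floor.

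**Figure D1:**
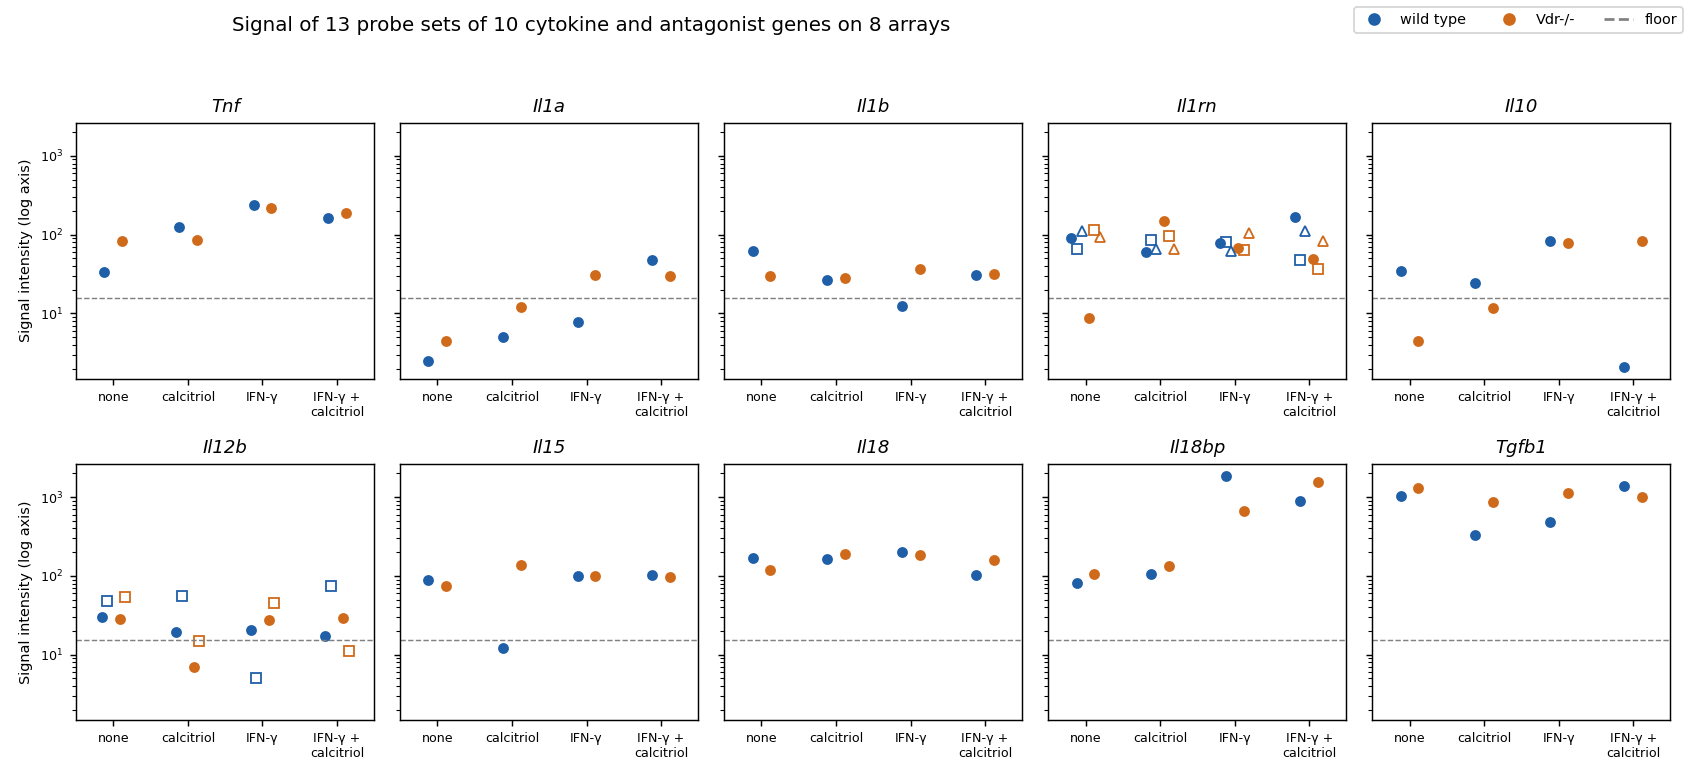
Signal intensity (log axis) of the 13 probe sets of the 10 genes in the 4 treatments, 1 array for each point, wild type in blue and Vdr-/- in orange, with the floor of 15.5 as a dashed line; open squares and triangles are further probe sets of a gene. Il18bp reads 80.3 to 133.2 without IFN-γ and 657.2 to 1880.1 with it, while the groups with and without IFN-γ overlap for every other member except Tnf.

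IFN-γ was compared with no IFN-γ over 4 array pairs, which share genotype and calcitriol, to ask which of these genes the cytokine changes. Il18bp, the antagonist of IL-18, was the member that rose. Without the cytokine it read 80.3 in the untreated culture labelled wild-type, 107.2 with calcitriol in wild type, 104.8 on the array labelled Vdr-/- untreated and 133.2 with calcitriol in Vdr-/-. With IFN-γ it read 1880.1 in wild type and 657.2 in Vdr-/-, and with IFN-γ and calcitriol 885 and 1547. The lowest array with IFN-γ was thus well above the highest without it, and the pairs gave 23.4-, 8.26-, 6.27- and 11.6-fold rises. The fitted rise was 3.45 log2 with a 95% interval of 2.84 to 4.05 (SE 0.292, limma adjusted p = 1.16e-08), or 10.9-fold. In whole cultures, more cells that express a gene and more RNA per cell cannot be told apart.

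Of the 9 tested genes 1 was called at an adjusted p of 0.05, against a background of 3.43% of all tested probe sets, or 2.15% called higher. The median change of the 11 member probe sets was 0.25 log2 and that of all tested probe sets -0.08 log2. Without the 2 arrays with the highest Gapdh ratios Il18bp was 3.46 log2 higher (limma adjusted p = 0.146), and without both untreated arrays 3.29 log2 higher (0.287), in additive fits without pairs, so the size held and the call did not. With any 1 of the 4 pairs left out it was 3.08 to 3.71 log2 higher and still called (adjusted p at most 0.017). The strength of the call depended on the fit. For Il18bp the limma adjusted p was 0.0357 without the intensity trend and 0.0373 with no filter at 59.1, against 1.16e-08 in the main fit. All called probe sets then numbered 70 of 18058 and 80 of 22626, against 619 of 18058 in the main fit.

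Tnf, which encodes the central proinflammatory cytokine TNF, had the next largest change but did not pass the test. It read 33.8 and 84.2 on the arrays labelled wild-type and Vdr-/- untreated, and 125.2 and 85.6 with calcitriol. With IFN-γ it read 240.2 in wild type and 218.8 in Vdr-/-, and with both agents 161.5 and 189. The 4 arrays with IFN-γ were all above the 4 without, a pattern that 3.11% of all tested probe sets showed. The fitted change was 1.43 log2 (SE 0.423, limma adjusted p = 0.0696), higher in 4 of 4 pairs, and pair by pair it ran from 0.37 log2 (wild type with calcitriol) to 2.83 log2 (wild type without). Without both untreated arrays it was 0.76 log2 (adjusted p = 0.819), and with the floor raised to the 40th percentile it was called (1.37 log2, 0.0441).

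Il10, the main anti-inflammatory cytokine gene of macrophages, was near the floor on most arrays without IFN-γ, at 35.1 (labelled wild-type untreated), 24.7 (wild-type calcitriol), 4.5 (labelled Vdr-/- untreated) and 11.8 (Vdr-/- calcitriol). On 3 of the 4 arrays with IFN-γ it read 78.5 to 82.3, and on the fourth, wild type with IFN-γ and calcitriol, 2.1. The groups therefore overlapped, and the fitted change of 1.33 log2 (SE 0.681, limma adjusted p = 0.443) did not pass.

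Of the IL-1 family, Il1a was below the floor on all 4 arrays without IFN-γ (2.5 to 12) and read 7.8, 30.9, 47.2 and 30.3 with IFN-γ, in wild type, in Vdr-/-, and with calcitriol in each. The groups overlapped, since 7.8 lies below 12. On average the signal was at least 1.56-fold higher, taken as the mean log2 signal of the 4 arrays with IFN-γ, here not floored, over the floor. Il1a was not tested because its signal was too low. Il1b, the gene of the cytokine that caspase-1 releases and a neighbour of Il1a on chromosome 2, read 26.9 to 62 without IFN-γ and 12.3 to 37.1 with it (-0.33 log2, SE 0.663, limma adjusted p = 0.894). Its highest value came from the untreated culture labelled wild-type and its lowest on the wild-type IFN-γ array.

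Il1rn, the IL-1 receptor antagonist gene, had 3 probe sets that did not follow each other. The first read 8.8 on the array labelled Vdr-/- untreated and 49.5 to 168.4 on the other 7, with a change of 0.46 log2 with IFN-γ (SE 0.591). The second read 65 to 114.7 without IFN-γ and 36.5 to 79.7 with it (-0.69 log2, SE 0.525), and the third read 65.1 to 111 and 61.2 to 112.9 (0.10 log2, SE 0.477). Their limma adjusted p values were 0.827, 0.668 and 0.964, so no direction can be given for this gene. In RefSeq the gene has 3 start windows in the promoter table, and the sources do not say which transcripts each probe set covers.

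The cytokine genes that act on T and NK cells changed little beside their error. Il15 encodes a survival factor of NK and memory T cells and read 73.7 to 137.5 on 7 arrays and 12 on the wild-type calcitriol array, the one with the highest Gapdh ratio. Its change with IFN-γ was 0.70 log2 (SE 0.543, limma adjusted p = 0.677) over all pairs, 0.03 log2 without the wild-type calcitriol pair and -0.15 log2 without the 2 arrays with the highest ratios. Il18, whose product Il18bp captures, read 118.3 to 189.7 without IFN-γ and 103 to 203.8 with it, a change of -0.01 log2 (SE 0.352, 95% interval -0.74 to 0.72). Il12b encodes the subunit that IL-12 and IL-23 share, and its second probe set read 15 to 55.9 without IFN-γ and 5.1 to 73.6 with it (-0.37 log2, SE 0.649). The first read 7 to 30.2 and 17.5 to 29.

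Tgfb1, which encodes the restraining cytokine TGF-β1, was bright on every array but uneven in wild type. The signal was 1028.6 in the untreated culture labelled wild-type, 327.5 with calcitriol, 477 with IFN-γ and 1366 with both. In Vdr-/- it stayed between 866.1 and 1286.6. The 2 wild-type pairs went opposite ways with IFN-γ (-1.11 and 2.06 log2), and the fitted change was 0.25 log2 (SE 0.32, limma adjusted p = 0.827). The pair at 2.06 log2 uses the wild-type calcitriol array, the one with the highest Gapdh ratio. Without the 2 arrays with the highest ratios the change was -0.023 log2, in an additive fit without pairs.

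**Figure D2:**
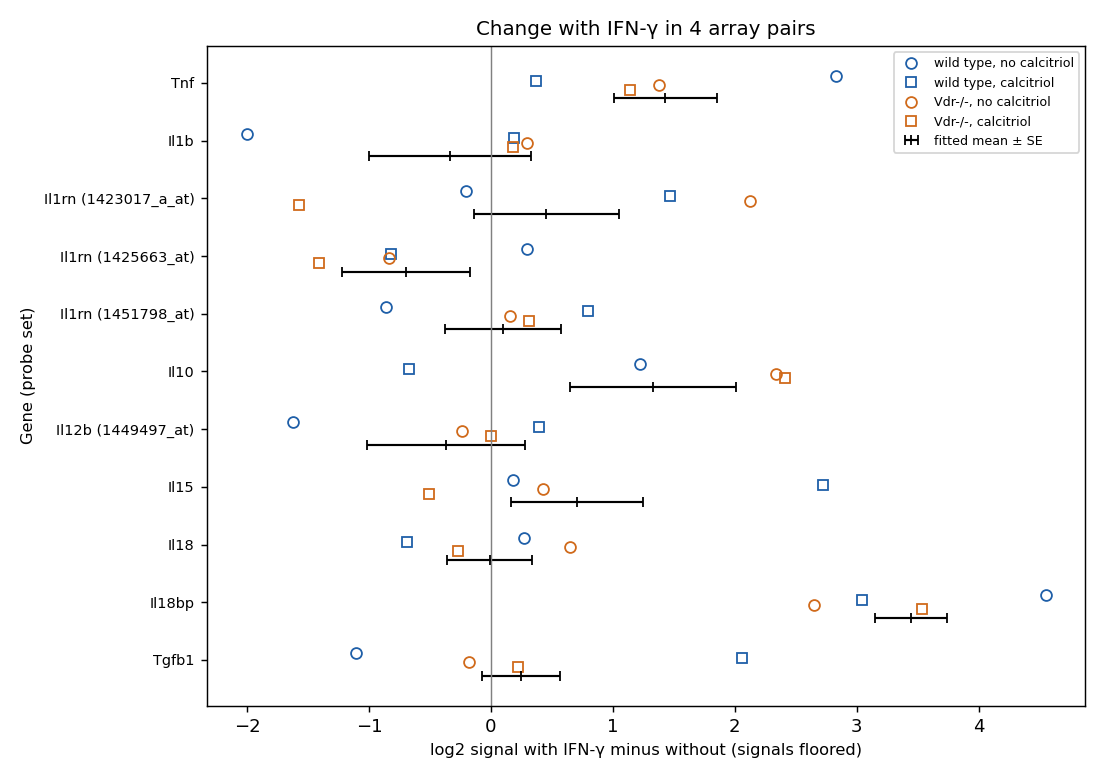
Change in floored log2 signal with IFN-γ for the 11 tested probe sets, 1 open point for each of the 4 array pairs and a bar for the fitted mean ± SE (n = 4 pairs). All 4 pairs lie above 0 for Il18bp (2.65 to 4.55 log2) and Tnf (0.37 to 2.83 log2), and pairs fall on both sides of 0 for the other members.

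Lists of related genes (receptors, cytokine relatives, processing and signalling genes) were set beside the members. Of 15 tested receptor genes 2 rose and 1 fell with IFN-γ. For this and the other lists, the share called over all tested probe sets was 3.43%. Il12rb1, a chain of the IL-12 receptor, rose by 2.97 log2 (SE 0.529, limma adjusted p = 0.000815), from 6.1 to 67.5 without IFN-γ to 142.5 to 256 with it. Tnfrsf1a, the TNF receptor found on most cells, rose by 1.00 log2 (adjusted p = 0.00484), from 572.9 to 823.3 to 1256.4 to 1413.6. Tnfrsf1b, the second TNF receptor, fell by 0.99 log2 (adjusted p = 0.0232), from 912 to 1235.3 down to 303.8 to 677.6. Thus neither TNF receptor gene's groups overlapped, and they moved in opposite directions. Of all tested probe sets 3.11% had every array with IFN-γ above every array without it. The share with every array below was not computed.

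Of 14 tested cytokine relatives 1 rose, Tnfsf13b, which encodes the B cell survival factor BAFF (3.89 log2, SE 0.439, limma adjusted p = 1.55e-06), and it read 5.9 to 42 without IFN-γ and 358.2 to 426.7 with it. Of 12 tested genes of cytokine processing 1 rose, the inflammasome adaptor gene Pycard (0.99 log2, adjusted p = 0.00856), which links sensors to caspase-1. The caspase gene itself, Casp1, changed by 0.66 log2 (adjusted p = 0.265). Of 22 tested signalling genes 1 rose, Stat3, through which the IL-10 receptor signals (1.65 log2, SE 0.265, adjusted p = 0.000243). The median change was -0.06 log2 for the receptors, 0.13 for the relatives, 0.21 for the processing genes and 0.05 for the signalling genes. In each of the other 5 comparisons 0 genes of these lists were called. The size and direction held better than the calls. Over the 13 alternatives Tnfsf13b lost its call in 1, Il12rb1 and Stat3 in 6 each, Tnfrsf1a in 7, Pycard in 8 and Tnfrsf1b in 10, and 0 of the 6 changed sign. Without both untreated arrays none of the 6 passed (limma adjusted p from 0.101 to 0.771), at 3.90 log2 for Tnfsf13b, 2.56 for Il12rb1, 1.62 for Stat3, 1.11 for Tnfrsf1a, 1.15 for Pycard and -1.50 for Tnfrsf1b, and without the 2 arrays with the highest ratios Tnfsf13b alone passed.

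The pattern of Il18bp over the 8 arrays was most like those of Slamf7, Zbp1 and Igtp, with Pearson's r of 0.988, 0.987 and 0.98 among 10345 other named genes. The 8 points share the IFN-γ contrast, so a gene that rises with IFN-γ scores high. The named genes were picked for their high r over the same 8 arrays, those with IFN-γ included. That choice favours genes with the order of Il18bp among the IFN-γ arrays, so a shared order is not a separate result. Zbp1, a sensor of left-handed nucleic acid, had the order of Il18bp among the IFN-γ arrays, at 2207.9 in wild type, 1828.4 in Vdr-/- with calcitriol, 1021.4 in wild type with calcitriol and 839.6 in Vdr-/-. Slamf7, a leukocyte surface receptor gene, had this order too, from 937 down to 631.4. Igtp, an interferon-inducible GTPase gene, ran from 1287.5 to 2741.6 in another order.

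**Figure D3:**
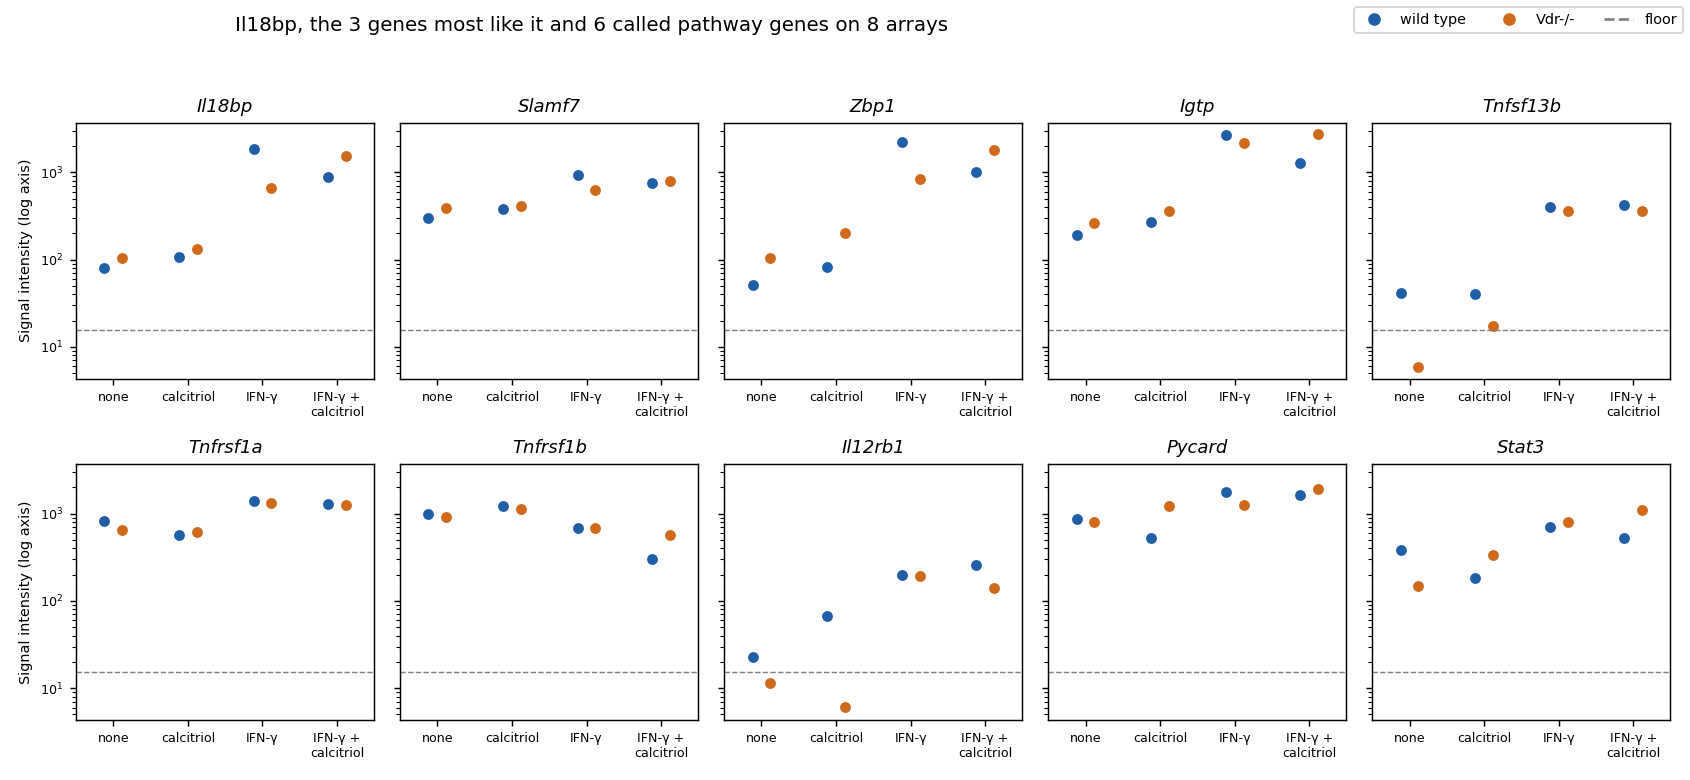
Signal intensity (log axis) of Il18bp, of the 3 genes most like it and of the 6 related genes that passed the test for IFN-γ, in the 4 treatments, 1 array for each point, wild type in blue and Vdr-/- in orange, floor dashed. Among IFN-γ arrays Il18bp and Zbp1 are highest in wild type without calcitriol (1880.1 and 2207.9), and Tnfrsf1b is the gene that is lower with IFN-γ.

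The genotypes were compared within each of the 4 treatments to ask what the loss of the receptor gene changes. None of the 9 tested genes was called, nor was any probe set in all (0 of 18058, 0%), by limma with pairs as blocks or by the additive fit, and 611 and 700 had an unadjusted p under 0.05, fewer than the 903 that would if none differed. Tgfb1 was higher in Vdr-/- with calcitriol and with IFN-γ, lower with both, and higher by label in the untreated pair, whose Vdr signals go against the labels. The fitted difference was 0.64 log2 (SE 0.322, limma adjusted p = 0.999, 95% interval -0.03 to 1.30), and 0.074 log2 without the 2 arrays with the highest Gapdh ratios. Il15 differed by 0.69 log2 (SE 0.604), which rests mainly on 1 array with a low signal. The first Il1rn probe set differed by -0.81 log2 (SE 0.631). It differed by -0.234 log2 without the untreated pair, which holds its lowest signal, and by -0.492 log2 without the pair with both agents. Il18bp differed by 0.00 log2 (95% interval -0.76 to 0.75) as the mean of unlike pairs: it was 2.86-fold lower in Vdr-/- with IFN-γ and 1.75-fold higher with IFN-γ and calcitriol. The Vdr-/- IFN-γ array, used for the 2.86-fold value, had a Gapdh ratio of 3.06. With 1 array in each group, a genotype effect and a difference between mice or cultures cannot be told apart.

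Calcitriol was compared with no calcitriol in each genotype to ask which changes occur with the receptor and which without it. In wild type 0 of the 9 genes were called, against a background of 0.576%, and in Vdr-/- 0, against 0.194%, and 0 of the 11 probe sets had an unadjusted p under 0.05 in either genotype. Both backgrounds depended on the fit, and were 0 without the intensity trend and with no filter. In wild type and Vdr-/- they were 58 and 18 of 17859 probe sets after quantile normalization. With the floor at the 40th percentile they were 135 and 58 of 18058. Of the values below, those without IFN-γ use the untreated arrays as labelled. In wild type the fitted changes included -1.46 log2 for Il10 (SE 0.949, limma adjusted p = 0.641), -1.25 log2 for Il15 (SE 0.757, 0.609) and 1.24 log2 for Il12b (SE 0.952, 0.712). For Il18bp the fitted change was -0.335 log2 (SE 0.413, limma adjusted p = 0.809). The value for Il10 rests on the IFN-γ pair, where it read 82.1 without and 2.1 with calcitriol, at least 5.3-fold lower and below the floor, 1 array against 1. In Vdr-/- with IFN-γ it read 78.5 without and 82.3 with calcitriol. The value for Il15 rests on the wild-type calcitriol array alone, and was 0.19 log2 without the 2 arrays with the highest ratios, in a fit with 1 IFN-γ effect for both genotypes.

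In Vdr-/- the changes with calcitriol included -1.68 log2 for Il12b (SE 0.952, limma adjusted p = 0.876), 1.40 log2 for the first Il1rn probe set (SE 0.856, 0.889) and 0.79 log2 for Il18bp (SE 0.413, 0.825). The Il1rn value rests on the low signal of 8.8 on the array labelled Vdr-/- untreated. In both genotypes the change of Il18bp without IFN-γ was small, from 80.3 to 107.2 in wild type and from 104.8 to 133.2 in Vdr-/-. With IFN-γ it was 2.12-fold lower with calcitriol in wild type and 2.35-fold higher in Vdr-/-, 1 array against 1 each. The Vdr-/- IFN-γ array in the latter pair had a Gapdh ratio of 3.06, and no calcitriol fit left it out.

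The difference between the genotypes in the calcitriol effect was tested directly, and 0 of the 9 genes were called, against 1.5% of all tested probe sets. The share depended on the fit: it was 0 without the intensity trend, with no filter and with the filter at the 75th percentile. The count was 220 of 17859 probe sets after quantile normalization, and 100 and 334 of 18058 with the floor at the 10th and 40th percentiles. The wild-type calcitriol array and the array labelled Vdr-/- untreated, with the highest Gapdh ratios, enter this difference with the same sign. RNA quality was thus not balanced in it. The difference was -1.13 log2 for Il18bp (SE 0.584, limma adjusted p = 0.46, 95% interval -2.33 to 0.08), -1.49 log2 for Il10 (SE 1.34, 0.712), -1.69 log2 for Il15 (SE 1.07, 0.578) and 2.92 log2 for Il12b (SE 1.35, 0.383). For Il18bp it was -2.32 log2 without the 2 arrays with the highest Gapdh ratios and -2.08 without both untreated arrays, neither called, in fits with 1 IFN-γ effect for both genotypes. The value of -2.32 log2 is set by the pairs with IFN-γ alone (-1.09 log2 in wild type and 1.24 in Vdr-/-), so it repeats them. For Il12b the difference was 0.86 log2 with the floor at the 40th percentile, and for Il10 -0.55. The intervals span changes of several fold, so these arrays do not show that calcitriol acts alike with and without its receptor. The difference in the IFN-γ effect was called for 0 of 18058 probe sets (0%), with 635 at an unadjusted p under 0.05 by limma. With the untreated arrays as labelled it was -2.10 log2 for Il10 (SE 1.34, adjusted p = 0.996), 1.49 log2 for Il15 (SE 1.07), -1.15 log2 for Il1b (SE 1.36) and 0.70 log2 for Il18bp (SE 0.584, 95% interval -0.50 to 1.91). For Il10 it was -0.49 log2 with the floor at the 40th percentile. The comparisons of IFN-γ, genotype and calcitriol use the same 8 arrays and are not independent of each other.

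**Figure D4:**
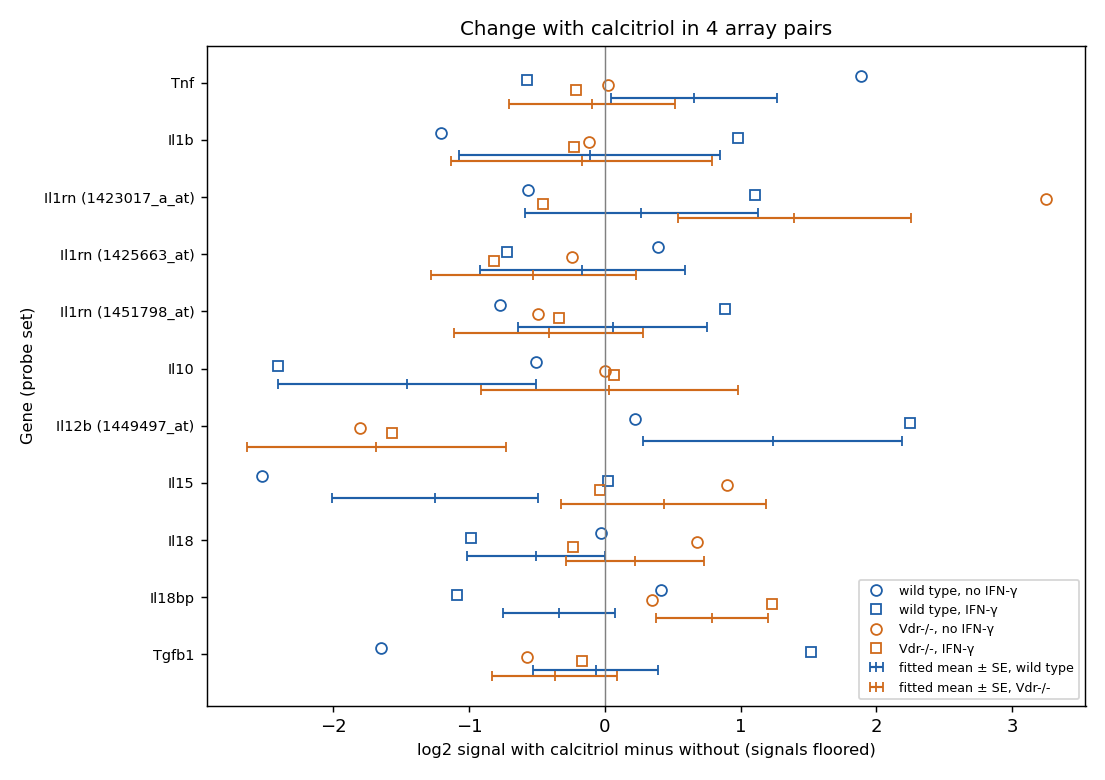
Change in floored log2 signal with calcitriol for the 11 tested probe sets, with 1 open point for each of the 2 pairs in wild type (blue) and in Vdr-/- (orange) and a bar for each fitted mean ± SE. For Il12b both wild-type pairs lie above 0 and both Vdr-/- pairs below it, and for Il18bp the pairs with IFN-γ lie on opposite sides (-1.09 and 1.24 log2).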

How the data were processed

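The deposited values were linear signal intensities of 22690 probe sets on 8 one-colour arrays, and they show that the authors had scaled each array to one 2% trimmed mean (150.07 to 150.08). The software and scaling method were not stated in the labels. After 64 controls were set aside, signals under 15.5 were raised to it, log2 was taken, and the 18058 probe sets reaching 59.1 on some array were tested with limma 3.58.1 in R 4.3.3, empirical Bayes with an intensity trend, two-sided, Benjamini-Hochberg over all of them at 0.05. IFN-γ and genotype were fitted with the 4 pairs as blocks, leaving 3 residual degrees of freedom, and calcitriol and differences in a fit nested in genotype, leaving 2. The spread is disagreement between pairs, since no group has a replicate. The members were given by name, and the members and lists were chosen with earlier results of these data known. Fitted values outside the IFN-γ comparison are printed for Il18bp and the 3 largest changes with the arrays as labelled, a rule set after the values were seen. From each list of related genes, up to 4 called genes were named, by their brightest probe set, and Casp1, chosen after its value was seen. For each called member, the 3 genes with the highest Pearson's r were named. The annotation names 1 gene for 20380 probe sets, several for 691 and none for 1555. Fits were tested on simulated data. A further promoter sequence that was searched is not reported here. Figures used Python 3.11.15 and matplotlib 3.10.9.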

Additional observations from a re-analysis of the deposited data

Results flagged for a closer look

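Il12b moved in opposite directions with calcitriol in the 2 genotypes on its tested probe set: both wild-type pairs were higher with calcitriol (47.8 to 55.9, and 5.1 to 73.6 with IFN-γ) and both Vdr-/- pairs were lower (54 to 15, and 45.9 to 11.1 with IFN-γ). The difference was 2.92 log2 (SE 1.35, limma adjusted p = 0.383, unadjusted p = 0.0406), so it did not pass. Signals of 5.1, 15 and 11.1 lie below the floor of 15.5, and the difference was 0.863 log2 with the floor at the 40th percentile and 3.972 log2 at the 10th. The array labelled wild-type untreated and the array labelled Vdr-/- untreated each enter 1 of these pairs. The other Il12b probe set, too dim to be tested, was lower with calcitriol in both wild-type pairs (30.2 to 19.6, and 20.6 to 17.5), and read 28.5 and 7 without and with calcitriol in Vdr-/-, and 27.2 and 29 with IFN-γ. The spread of single arrays within a group could not be examined, as each group had 1 array.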

How the results depend on the processing

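Il18bp was higher with IFN-γ under all 13 alternatives, at 3.08 to 3.71 log2, and lost its call in 2 of them, where 0 members were called (53 of 18058 probe sets without the 2 arrays with the highest Gapdh ratios, 24 without both untreated arrays). With the floor at the 40th percentile 2 were called, as Tnf joined at 1.37 log2. In the other 5 comparisons 0 members were called under any alternative run. Members that were not called changed sign with IFN-γ as follows. Quantile normalization gave 0.029 log2 for Il18. Without the 2 arrays with the highest ratios the values were -0.50 for Il1rn (first probe set), 0.14 for Il12b, -0.15 for Il15 and -0.023 for Tgfb1. Without both untreated arrays they were 0.19 for Il1b, -0.052 for Il1rn (first probe set) and 0.20 for Il12b. With 1 pair left out the ranges were -0.54 to 0.22 for Il1b, -0.62 to 0.054 for Il12b, -0.23 to 0.22 for Il18, -0.36 to 0.70 for Tgfb1, and -0.10 to 1.13 and -0.13 to 0.42 for Il1rn (the first and the third probe set). For genotype, Il18bp was 0.012 log2 after quantile normalization, and with 1 pair left out it ran from -0.27 to 0.50 and Il15 from -0.13 to 1.01. Without the 2 arrays with the highest ratios, the calcitriol change was 0.19 for Il15 in wild type, -0.11 for Il1rn (first probe set) in Vdr-/-, and the genotype difference for Il15 0.054. The cause was not tested. These fits without 2 arrays are additive in genotype, IFN-γ and calcitriol (2 residual degrees of freedom), or share 1 IFN-γ effect between genotypes for calcitriol (1), so they change the model as well as the arrays. The one for calcitriol without both untreated arrays was chosen after seeing the data. The difference in the IFN-γ effect was not fitted without these arrays, nor were the calcitriol comparisons with a pair left out, as no residual degrees of freedom remain in the nested fit. Low signal limits what these data show for Il1a, Il1b, Il10 and Il12b.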
